A study of Homo sapiens with 8 samples.

Results

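The nuclear genes of oxidative phosphorylation were followed during differentiation toward blood in H9, a widely used human embryonic stem cell line. Members were all genes whose single annotated symbol began with NDUFA, NDUFB, NDUFC, NDUFS, NDUFV, SDH, UQCR, COX4, COX5, COX6, COX7, COX8 or ATP5, which gave 94 of the 19775 genes measured. Of these, 89 encode proteins of respiratory complexes I to V or their assembly factors, and 5 are noncoding RNAs or pseudogenes whose symbols share those letters. The series holds 4 groups of 2 arrays each. The day 0 group was undifferentiated H9 that was not sorted, and the other groups were cells double positive for KDR and CD31 that were sorted on day 4, day 6 and day 8. KDR, a receptor of VEGF, and CD31, an adhesion protein, mark endothelial cells and their precursors. The cells had been kept on feeder layers of mouse embryonic fibroblasts, and differentiation used a serum-free medium with BMP-4. The design names 2 biological replicates a group and does not state whether their cultures were separate, so the p-values measure only the spread between these 8 arrays, whose number limits the precision of every value. Day of differentiation and sorting changed together between day 0 and the other groups and cannot be told apart, and in RNA from bulk cells, fewer cells of a type and less RNA per cell cannot be told apart either.

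Complexes I to IV carry electrons from NADH and succinate to oxygen, and complexes I, III and IV pump protons across the inner mitochondrial membrane as they do so. Complex V, the ATP synthase, lets the protons flow back and makes ATP. Most of the subunits are encoded in the nucleus, and a small core set of complexes I, III, IV and V is encoded in mitochondrial DNA. Pluripotent stem cells are known for a strong reliance on glycolysis, and endothelial cells are likewise known to draw much of their ATP from it.

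Genes were tested if 2 or more of the 8 arrays had them over that array's median, which held for 88 of the 94, including 84 of the 89 protein members. These were all 41 genes of complex I (33 subunits and 8 assembly factors), all 7 of complex II, all 6 of complex III, 13 of 17 of complex IV and 17 of 18 of complex V. The 6 genes below that limit were ATP5MF, COX6A2, COX7A1, COX7B2, COX8C and the pseudogene COX6A1P1. NDUFA4, NDUFA4L2, NDUFC2, NDUFS5, NDUFS8, SDHB, UQCRFS1, UQCRH and UQCRHL had no probe set with 1 symbol and were not analysed here, nor were the subunits encoded in mitochondrial DNA. Values are intensities in the authors' units, and differences are those of log2(intensity + 32), which understates changes of dim genes. A gene is said to have risen or fallen where limma gave a Benjamini-Hochberg adjusted p under 0.05 over the 13647 genes tested. Each difference has the SE of 1 fit over all 4 groups.

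The labels were checked against marker genes. The summed intensity of 18 endothelial markers was 3166 to 3401 on day 0, 69240 to 95170 on day 4, 60470 to 101100 on day 6 and 86550 to 89680 on day 8. For the 12 pluripotency markers measured, the sums were 60930 to 63920, 10470 to 12130, 9240 to 10030 and 8431 to 9085 in the same order of days. Endoderm markers, 12 genes of another lineage, summed to 1470 to 1498 on day 0, 3721 to 27330 on day 4, 997.5 to 7930 on day 6 and 11720 to 15200 on day 8. Blood markers, of which 12 were measured, summed to 858.2 to 919.9 on day 0, 4704 to 4966 on day 4, 3756 to 10720 on day 6 and 14020 to 16260 on day 8. Fibroblast and smooth muscle markers summed to 11730 to 25260 on the sorted arrays, against 39780 to 39820 on day 0. The 3′ to 5′ ratio of the GAPDH control probes, which rises with RNA degradation, was 1.71 and 1.91 on day 0, 2.22 and 2.15 on day 4, 3.73 and 3.41 on day 6 and 2.41 and 3.08 on day 8. This ratio was higher on every sorted array than on day 0. The same ratio of the ACTB probes was 8.92 and 10.4 on day 0, 19.0 and 9.18 on day 4, 31.0 and 16 on day 6 and 9.91 and 15.1 on day 8, so that it overlapped day 0 on day 4 and day 8 and was highest in replicate 1 of day 6 and of day 4. The part of these ratios and marker sums in the results below was not tested.

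At day 4 the oxidative phosphorylation genes lay close to their day 0 level, and on day 6 and day 8 most of them lay below it. Against day 0, the median log2 difference of the 84 protein members was -0.02 on day 4, -0.37 on day 6 and -0.50 on day 8, where the median over all genes tested was 0.02, -0.03 and -0.03. At day 4, 49 of the 84 differences were negative, on day 6 this held for 68, and on day 8 for 73. Many of these differences were small, and most genes did not pass the test alone.

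**Figure D1:**
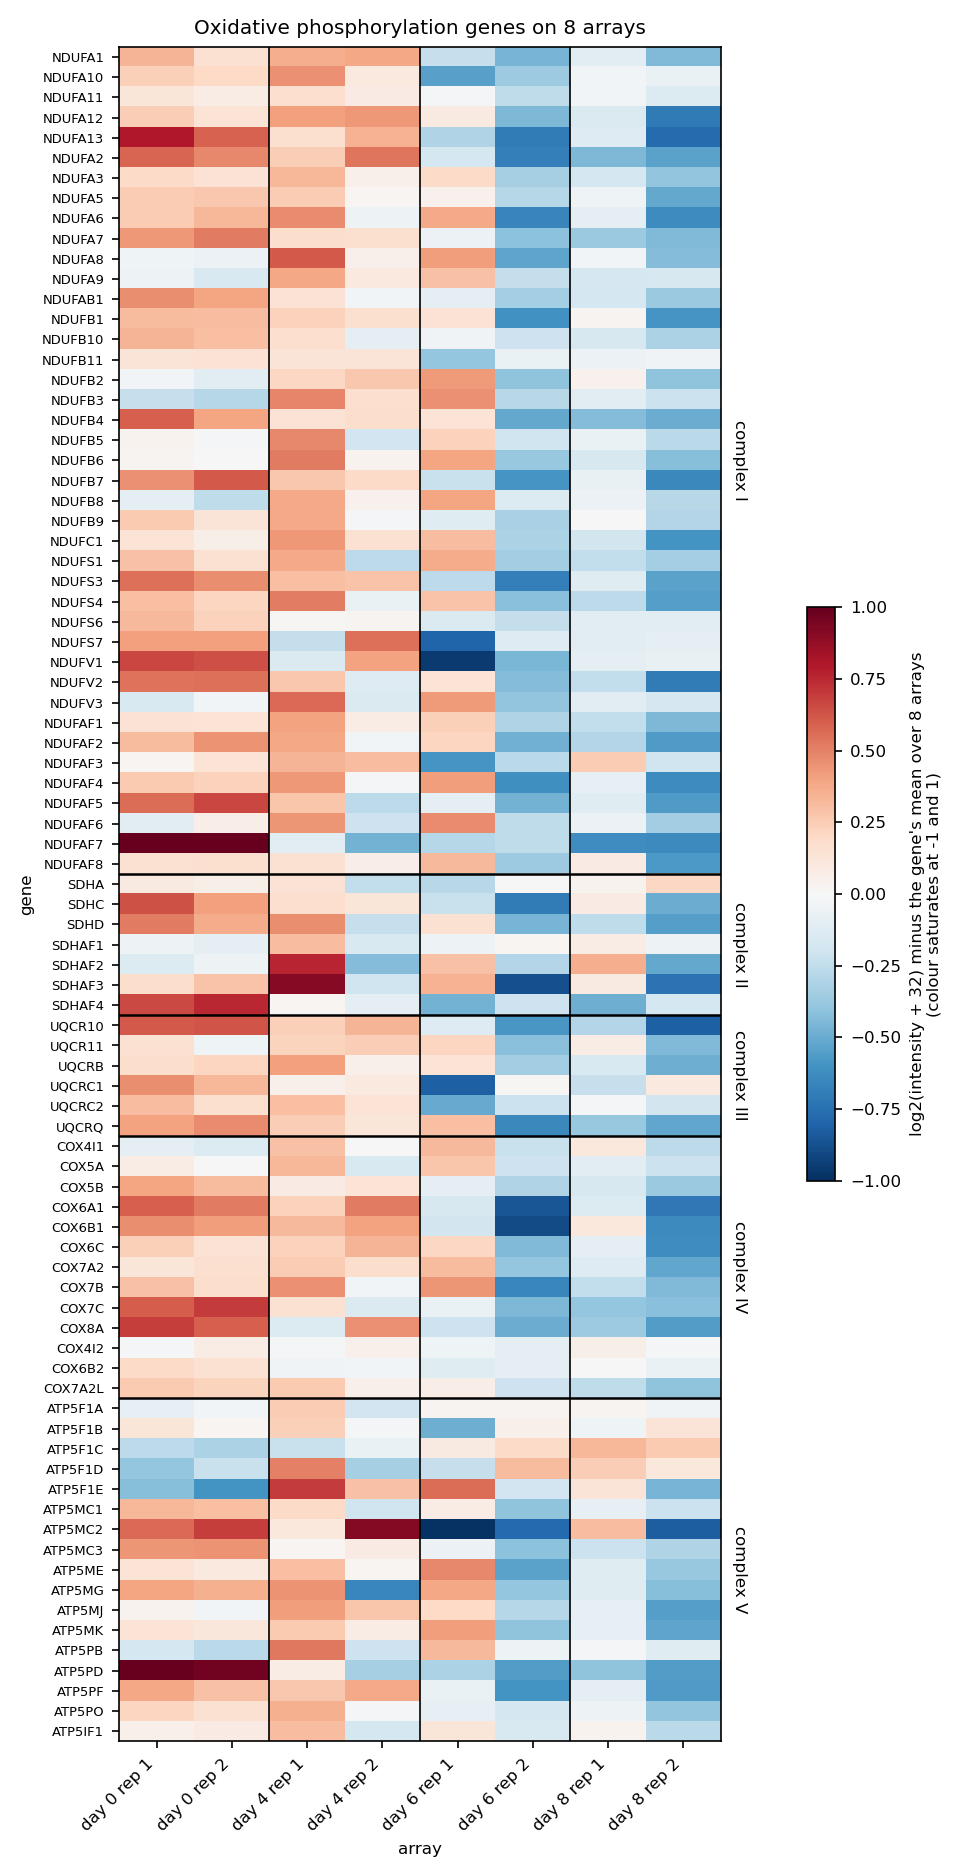
Heat map of the 84 tested protein members (rows, by complex) on the 8 arrays (columns, by day). Colour gives log2(intensity + 32) minus the mean of that gene over the 8 arrays, and NDUFAF7 and ATP5PD stand out with their high values on both day 0 arrays.

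In day 4 cells, 3 of the 88 members tested fell and none rose against day 0, a share of 3.41%, where 18.4% of all genes passed the test, 9.91% falling and 8.52% rising. At an unadjusted p under 0.05, 6 members were lower and 1 was higher, where 31.4% of all genes passed in either direction. In day 6 cells, 23 of 88 members fell and none rose, where 23.4% of all genes passed, 13.6% falling and 9.73% rising. Among these 23 was the pseudogene ATP5MC2P1. In day 8 cells, 19 of 88 members fell and 1 rose, where 24.5% of all genes passed, 14.1% falling and 10.4% rising. The share of members past the test, 26.1% on day 6 and 22.7% on day 8, was near the share of all genes at either day, and all but 1 of these calls were downward. With the 6 sorted arrays averaged by day against day 0, 21 members fell and 1 rose, a share of 25% where 30.2% of all genes passed, 16.9% falling and 13.4% rising. These comparisons share the same 2 day 0 arrays. Without replicate 1 or replicate 2 of day 0, the members past the test numbered 3 and 2 on day 6 and likewise 3 and 2 on day 8, while the count over all genes fell to 1205 and 1212 on day 6 and to 1217 and 1265 on day 8. Without replicate 2 of day 6, 6 members passed on day 6, and without replicate 1 or replicate 2 of day 8, 7 and 3 passed on day 8.

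**Figure D2:**
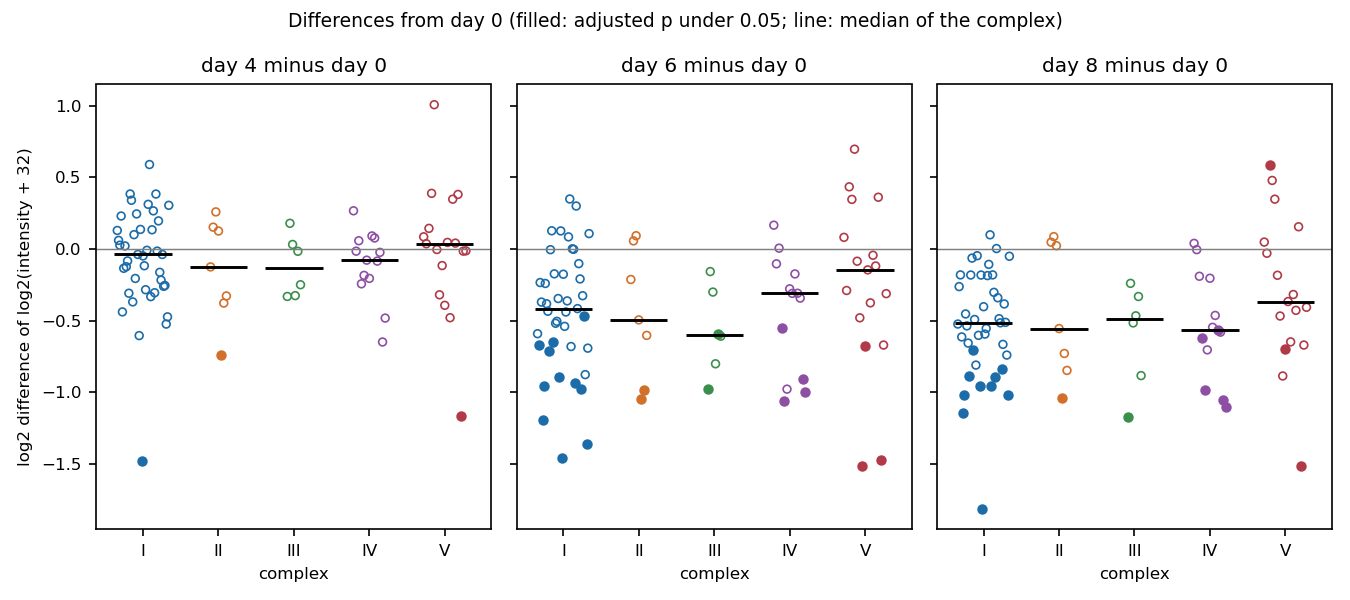
Log2 difference of each tested protein member from day 0 (vertical axis) by complex (horizontal axis), in 1 panel each for day 4, day 6 and day 8. Filled points passed the test at an adjusted p under 0.05, and black lines are the complex medians, which on day 8 lie between -0.57 (complex IV) and -0.37 (complex V).

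The promoters of the members that fell on day 6 or day 8 were read for the motifs of NRF1 and of ETS factors such as GABP, regulators long known to act on respiratory chain genes. In RefSeq (GRCh38.p14), a window from 250 bases before to 50 after the start was found for 77 of the 89 protein members. The NRF1 core GCATGCGC, searched on both strands, stood in 18.2% of these and in 3.21% of all 27305 promoters of that length. The ETS core CCGGAAG stood in 28.6% against 10.6%, and the YY1 core AAGATGGCG in 11.7% against 1.81%. The 27305 promoters were not filtered by type of gene, while these members are all genes of proteins. Among the 23 protein members that fell on day 6 or day 8 and had a promoter, the shares were 21.7% for NRF1, 30.4% for ETS and 4.35% for YY1. Among the 51 tested members that did not fall they were 17.6%, 29.4% and 15.7%. A stretch of 60 bases is shown for the 4 members that fell and hold the NRF1 core before the start, with the match in capitals, so that its setting can be seen.
NDUFB4, chr3:120596153-120596212, plus strand: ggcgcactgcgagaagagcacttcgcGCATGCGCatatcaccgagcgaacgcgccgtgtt
NDUFS6, chr5:1801335-1801394, plus strand: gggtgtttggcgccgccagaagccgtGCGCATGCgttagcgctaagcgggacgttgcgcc
COX5B, chr2:97645900-97645959, plus strand: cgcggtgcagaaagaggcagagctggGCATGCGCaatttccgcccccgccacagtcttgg
COX6A1, chr12:120437913-120437972, plus strand: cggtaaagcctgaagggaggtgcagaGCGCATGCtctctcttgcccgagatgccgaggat
The ETS core is shown, in capitals on either strand, for ATP5PD and COX8A, which fell in complexes V and IV.
ATP5PD, chr17:75047037-75047096, minus strand: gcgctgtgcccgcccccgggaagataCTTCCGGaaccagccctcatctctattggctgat
COX8A, chr11:63974560-63974619, plus strand: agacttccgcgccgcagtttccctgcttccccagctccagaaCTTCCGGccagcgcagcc
A match is a run of letters and not a measured binding site.

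Complex I, the NADH dehydrogenase, showed its clearest fall in an assembly factor. NDUFAF7, a methyltransferase needed to assemble the complex, had intensities of 1970 and 1894 on day 0, 764.2 and 589 on day 4, 676 and 690.2 on day 6 and 529.1 and 523.2 on day 8. All 6 sorted arrays lay far below both day 0 arrays, and already did so on day 4. Against day 0 it was 2.79-fold lower on day 4 (log2 difference -1.48, SE 0.18, adjusted p = 0.00205) and 3.52-fold lower on day 8 (-1.81, SE 0.18, adjusted p = 0.000726). Its other 2 probe sets above background gave -1.40 and -1.37 on day 4 and -1.38 and -1.48 on day 8. NDUFAF7 passed the test at each day under every alternative processing and with any single array left out. NDUFAF5, a factor that hydroxylates NDUFS7, fell by 0.89 on day 6 (SE 0.26, adjusted p = 0.0484) and by 0.95 on day 8 (SE 0.26, adjusted p = 0.0386) on the log2 scale. The other 6 factors named NDUFAF did not pass in any of these comparisons.

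Subunits of complex I that fell included the NADH binding part. NDUFV1, which holds the flavin that takes electrons from NADH, had 3455 and 3391 on day 0, 1955 and 2871 on day 4, 1099 and 1569 on day 6 and 2022 and 2049 on day 8. The day 6 arrays were the lowest and the day 8 arrays lay between day 6 and day 0. It fell on day 6 by 1.36 on the log2 scale (SE 0.25, adjusted p = 0.00929), while the day 8 difference of -0.74 (SE 0.25) had an adjusted p of 0.0721. Over the alternatives the day 6 difference of NDUFV1 ranged from -1.61 to -0.64. With the mean of the 2 probe sets of NDUFV1 the day 6 call held, and that for the mean of the sorted days was lost. Its partner NDUFV2 had 1728 and 1745 on day 0, 1432 and 1076 on day 4, 1301 and 866.4 on day 6 and 989.9 and 714.2 on day 8. For NDUFV2 the day 8 difference passed (-1.02, SE 0.27, adjusted p = 0.0363) and the day 6 difference of -0.69 did not (adjusted p = 0.117). NDUFA13, a membrane arm subunit also known as GRIM-19, had 3933 and 3398 on day 0, 2513 and 2874 on day 4, 1814 and 1374 on day 6 and 2054 and 1306 on day 8. It was 2.29-fold lower on day 6 (adjusted p = 0.0185) and 2.21-fold lower on day 8 (adjusted p = 0.0211), with no overlap of the arrays. NDUFA2, an accessory subunit of the arm that faces the matrix, had 3204 and 2984 on day 0, 2542 and 3113 on day 4, 1884 and 1320 on day 6 and 1552 and 1465 on day 8. Its day 4 arrays overlapped day 0, and it fell on day 8 by 1.02 (SE 0.22, adjusted p = 0.0165).

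In all, 11 of 41 complex I genes fell on day 6, a share of 26.8% where 13.6% of all genes fell, and 10 fell on day 8, a share of 24.4% where 14.1% of all genes fell. The median of the complex was -0.04 on day 4, -0.42 on day 6 and -0.52 on day 8, with negative differences in 24, 34 and 39 of 41 genes. NDUFS3, NDUFA7, NDUFB7 and NDUFAB1, the last also the acyl carrier protein of mitochondria, fell at both day 6 and day 8, with log2 differences from -0.98 to -0.65 on day 6 and from -0.89 to -0.70 on day 8. NDUFA10 and NDUFS6 passed on day 6 and not on day 8, NDUFB4 passed on day 8 and not on day 6, and the test of day 8 against day 6 called none of them. On the upper side, NDUFB3, a subunit of the membrane arm, had 1360 and 1309 on day 0, 2267 and 1808 on day 4, 2213 and 1318 on day 6 and 1487 and 1378 on day 8. Its day 4 arrays were both higher than day 0 (log2 difference 0.59, SE 0.27), with an adjusted p of 0.187. For NDUFA11 and NDUFB8 the probe sets disagreed in size or sign. NDUFA11 differed on day 8 by -0.18 on the probe set used and by -1.43 on a dimmer one. NDUFB8 differed by 0.00 on the probe set used and by -0.49 on a second bright one, neither past the test, and another, dim one gave 0.60, with an adjusted p of 0.0487 when each probe set was tested on its own.

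Complex II, succinate dehydrogenase, also belongs to the citric acid cycle. Its 3 subunits measured here did not move alike. SDHA, the catalytic flavoprotein, had 2269 and 2214 on day 0, 2354 and 1789 on day 4, 1751 and 2125 on day 6 and 2183 and 2459 on day 8. The day 8 arrays of SDHA straddled day 0, and the difference was 0.05 (SE 0.20, adjusted p = 0.895). SDHA was measured by only 1 probe set, whose name marks possible cross-hybridisation. SDHC, a membrane anchor, had 3159 and 2696 on day 0, 2272 and 2206 on day 4, 1723 and 1235 on day 6 and 2138 and 1427 on day 8. All sorted arrays of SDHC were lower than day 0, and it fell on day 6 by 0.98 on the log2 scale (SE 0.26, adjusted p = 0.0345), with -0.73 on day 8 (adjusted p = 0.0818). The other anchor, SDHD, had a log2 difference of -0.60 on day 6 (SE 0.30, adjusted p = 0.205) and of -0.85 on day 8 (SE 0.30, adjusted p = 0.0839).

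Among the 4 assembly factors of complex II, SDHAF4 fell at every sorted day. SDHAF4, which binds SDHA before it joins the complex, had 410.9 and 440.1 on day 0, 252.4 and 231.8 on day 4, 169.8 and 211.5 on day 6 and 167.6 and 216.4 on day 8. The groups did not overlap with day 0, and the log2 differences were -0.74 on day 4 (SE 0.17, adjusted p = 0.0273) and -1.04 on day 8 (SE 0.17, adjusted p = 0.00629). SDHAF1, SDHAF2 and SDHAF3 did not pass. SDHAF3 lay far apart between replicates, with 1025 and 458.6 on day 4 and 684.2 and 274.4 on day 6.

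Complex III passes electrons from ubiquinol to cytochrome c. All 6 of its measured subunits had negative differences on day 6 and on day 8, with medians of -0.60 and -0.49, and the day 4 median was -0.13. UQCR10, a small subunit of the membrane part, had 2784 and 2822 on day 0, 2145 and 2299 on day 4, 1656 and 1201 on day 6 and 1477 and 1017 on day 8. Every sorted array of UQCR10 was lower than both day 0 arrays, and it fell by 0.97 on day 6 (SE 0.24, adjusted p = 0.0288) and by 1.17 on day 8 (SE 0.24, adjusted p = 0.0144). A second, dim probe set of UQCR10 gave 0.26 on day 8, and with the mean of its probe sets the call was lost. UQCRC2, a core protein, fell on day 6 by 0.59 (SE 0.16, adjusted p = 0.0419), with -0.33 on day 8 (adjusted p = 0.188). UQCRC1, the other core protein, had 2327 and 4145 on day 6 against 5697 and 5194 on day 0, a difference of -0.80 that did not pass (adjusted p = 0.0829).

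Complex IV, cytochrome c oxidase, reduces oxygen. Its nuclear subunits surround a core made in the mitochondrion, and several exist as isoforms of different tissues. The median of its 13 tested genes was -0.08 on day 4, -0.31 on day 6 and -0.57 on day 8. COX7C, a small subunit, had 1223 and 1310 on day 0, 884.5 and 714.6 on day 4, 757.6 and 571.2 on day 6 and 600.2 and 587.2 on day 8. Its sorted arrays were all below day 0, and it fell by 0.91 on day 6 (SE 0.20, adjusted p = 0.0199) and by 1.05 on day 8 (SE 0.20, adjusted p = 0.0114). Its other 2 probe sets, which are brighter and whose names mark possible cross-hybridisation, gave -0.90 and -0.98 on day 6. COX8A, the ubiquitous form of subunit 8, had 4273 and 4003 on day 0, 2397 and 3632 on day 4, 2282 and 1854 on day 6 and 2041 and 1781 on day 8. It was 1.99-fold lower on day 6 (adjusted p = 0.0251) and 2.15-fold lower on day 8 (adjusted p = 0.0168). COX6A1, the form found outside heart and skeletal muscle, fell by 1.06 on day 6 (SE 0.29, adjusted p = 0.0405) and by 0.99 on day 8 (SE 0.29, adjusted p = 0.0497), a call that held in 8 of 21 alternatives. COX5B fell on day 6 and day 8 by 0.55 and 0.62 (SE 0.16 each), and COX7A2L, which takes part in joining complexes into supercomplexes, fell on day 8 by 0.57 (SE 0.16, adjusted p = 0.0441).

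Other subunits of complex IV did not pass the test. COX4I1, the common form of subunit 4, had 7643 and 7407 on day 0, 10010 and 8195 on day 4, 10210 and 6989 on day 6 and 8785 and 6807 on day 8. The day 6 and day 8 arrays straddled day 0, with a log2 difference of 0.04 on day 8 (SE 0.23, adjusted p = 0.924). COX5A differed by -0.19 on day 8 (SE 0.22, adjusted p = 0.581). COX6B1, COX6C, COX7A2 and COX7B had differences of -0.70, -0.55, -0.46 and -0.58 on day 8, around the median of the complex, and COX6B1 had -0.98 on day 6 (SE 0.31, adjusted p = 0.0652). Of the isoforms known from lung, muscle or testis, COX4I2 lay between 165.1 and 190.3 and COX6B2 between 78.24 and 105.2 over the 8 arrays. COX4I2 differed by 0.00 on day 8 (SE 0.12), and COX6B2 by -0.20 (SE 0.09, adjusted p = 0.131). COX6B2 was over the array median on 2 arrays only, both of day 0, so it was tested because of its day 0 level. Its negative differences, which also enter the counts and medians above, are thus no sign of a fall. COX6A2, COX7A1, COX7B2 and COX8C were below the limit for testing, with intensities of at most 71.88 on any array, so no switch of isoform was detectable here.

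**Figure D3:**
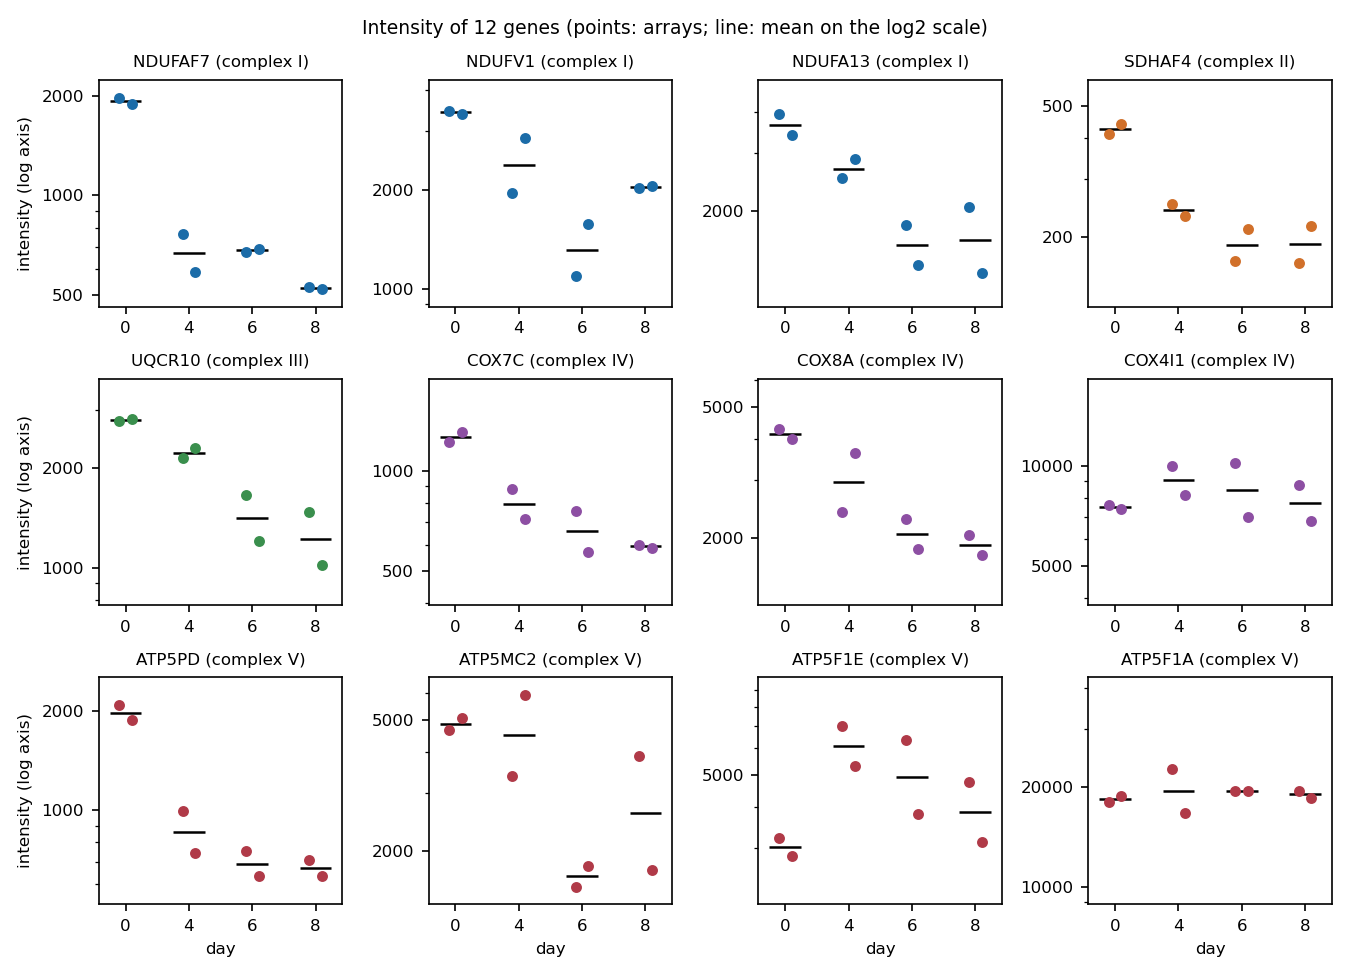
Intensity (vertical axis, log scale, in the authors' units) of 12 members by day (horizontal axis). Points are the 2 arrays of a day and lines their mean on the log2 scale. NDUFAF7, NDUFV1, NDUFA13, SDHAF4, UQCR10, COX7C, COX8A and ATP5PD are below both day 0 arrays on all 6 sorted arrays. COX4I1, ATP5MC2, ATP5F1E and ATP5F1A are not.

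Complex V held members with differences of either sign. ATP5PD, subunit d of the peripheral stalk, had 2079 and 1874 on day 0, 998.5 and 743.9 on day 4, 753.1 and 632.5 on day 6 and 708.7 and 632.4 on day 8. Its sorted arrays were all far below day 0. It was 2.24-fold lower on day 4 (log2 difference -1.17, SE 0.21, adjusted p = 0.00964) and 2.86-fold lower on day 8 (-1.52, SE 0.21, adjusted p = 0.00287). The day 4 call was lost without either day 0 array, and the day 6 and day 8 calls held with any single array left out. A dim second probe set of ATP5PD, between 81.64 and 146.4, gave -0.10 on day 8.

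The catalytic head of the synthase did not follow ATP5PD. ATP5F1A, the alpha subunit, had 18060 and 18760 on day 0, 22740 and 16750 on day 4, 19440 and 19500 on day 6 and 19480 and 18590 on day 8. The groups lay side by side, with a log2 difference of 0.05 on day 8 (SE 0.15, adjusted p = 0.854). ATP5F1B, the catalytic beta subunit, differed by -0.03 on day 8 (SE 0.20, adjusted p = 0.936). ATP5F1E, the epsilon subunit of the central stalk, had 3214 and 2842 on day 0, 7032 and 5304 on day 4, 6377 and 3792 on day 6 and 4741 and 3133 on day 8. Both day 4 arrays and both day 6 arrays were above day 0, and the day 8 arrays overlapped it. Its day 4 difference of 1.01 (SE 0.31), the highest of any member, had an adjusted p of 0.0717. ATP5F1D, the delta subunit, and ATP5PB, subunit b of the stalk, had differences of 0.39 and 0.38 on day 4 without passing.

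ATP5F1C, the gamma subunit that turns in the head, was the 1 member called higher. On the probe set chosen by the rule, it had 220.6 and 211.5 on day 0, 227.5 and 257.4 on day 4, 291.1 and 315.5 on day 6 and 350.5 and 331 on day 8, a 1.5-fold rise on day 8 (log2 difference 0.59, SE 0.14, adjusted p = 0.0248). Its 3 other probe sets, whose names mark possible cross-hybridisation, had 6455 to 10620 units on the 8 arrays and differences of -0.16 to -0.11 on day 8. With the mean of its 4 probe sets the difference was 0.04 and no call was made, so the probe sets of this gene disagree.

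The c ring, which turns in the membrane, is made from 3 genes that encode the same mature subunit. ATP5MC3 had 7290 and 7323 on day 0, 5435 and 5677 on day 4, 5151 and 4027 on day 6 and 4622 and 4351 on day 8. All its sorted arrays were lower than day 0, and it fell by 0.68 on day 6 (SE 0.16, adjusted p = 0.0253) and by 0.70 on day 8 (SE 0.16, adjusted p = 0.0216). ATP5MC2 had 4653 and 5064 on day 0, 3369 and 5946 on day 4, 1560 and 1807 on day 6 and 3875 and 1755 on day 8. It fell on day 6 (-1.51, SE 0.41, adjusted p = 0.0381), while its day 8 arrays lay far apart (-0.89, adjusted p = 0.158). The day 6 call was lost with the mean of the 2 probe sets of ATP5MC2. Over the alternatives the day 6 difference of ATP5MC2 ranged from -1.62 to -0.62. Its pseudogene ATP5MC2P1, with 45.16 and 48.58 on day 6 and 85.78 and 96.05 on day 0, gave -0.64 on day 6 (adjusted p = 0.0434), and signal of the gene on the pseudogene's probe set cannot be told apart from its own. ATP5MC1 differed by -0.48 on day 6 and by -0.47 on day 8 (SE 0.23 each) and did not pass. ATP5IF1, the inhibitor of the synthase, differed by -0.18 on day 8 (SE 0.22, adjusted p = 0.587), and another bright probe set of it gave -0.75.

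Within the sorted cells, most members were lower on day 6 and on day 8 than on day 4, but none passed the test. The median log2 difference was -0.29 for day 6 against day 4, with 81 of 84 protein members negative, and -0.40 for day 8 against day 4, with 79 of 84 negative. Over all genes tested these medians were -0.04 and -0.06. All 41 complex I genes were negative for day 8 against day 4. The smallest adjusted p of any member was 0.843 for day 6 against day 4, 0.724 for day 8 against day 4 and 0.955 for day 8 against day 6, and limma called 0% of all genes in these 3 comparisons. At an unadjusted p under 0.05, 18 of the 84 members were lower and 1 was higher on day 8 than on day 4, where 6.5% of all genes passed in either direction. For day 6 against day 4 this held for 15 lower and 0 higher, where 5.29% of all genes passed. NDUFA2 had the smallest unadjusted p for day 8 against day 4, with 1552 and 1465 on day 8 against 2542 and 3113 on day 4 (log2 difference -0.89, SE 0.22, adjusted p = 0.724). NDUFA12 differed by -0.84 (SE 0.25) and UQCR10 by -0.84 (SE 0.24) in the same comparison. For day 8 against day 6 the median was -0.11, with 56 of 84 negative, and NDUFV1, which was higher on day 8, was the 1 member at an unadjusted p under 0.05, where 2.48% of all genes passed.

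The 2 arrays of a sorted day differed in these genes as a group. For replicate 2 minus replicate 1, the median of the 84 protein members was -0.04 on day 0, -0.26 on day 4, -0.47 on day 6 and -0.24 on day 8, with positive values in 27, 24, 17 and 9 members. Over all genes the medians were -0.01, -0.12, -0.07 and -0.07. The size of the gap between the day 6 replicates thus exceeded that of the day 6 median difference from day 0. Genes more than 2-fold apart between replicates made up 6.66% of all genes on day 4 and 9.25% on day 6, against 1.58% on day 8. Without replicate 1 of day 4 and replicate 1 of day 6, the arrays with the highest ACTB ratios and a setting chosen after the data were seen, 10 members passed on day 4, 47 on day 6 (45 lower) and 43 on day 8 (41 lower), while the counts over all genes were 4764, 6096 and 6781. The median of the 84 members on day 4 was then -0.18, with a median over all genes of -0.04. Whether the culture, the sort or the RNA made these arrays differ was not tested.

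**Figure D4:**
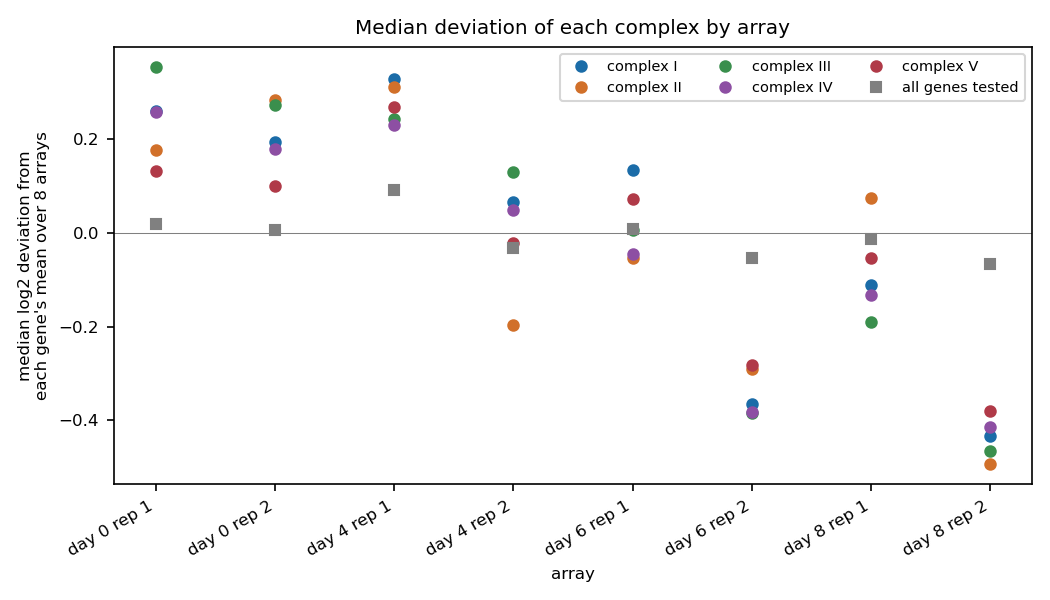
Median over the members of each complex, and over all 13647 genes tested, of the deviation of log2(intensity + 32) from that gene's mean over 8 arrays (vertical axis), by array (horizontal axis). Over complexes I to V as a whole the medians are 0.25 and 0.17 on day 0, 0.27 and 0.05 on day 4, 0.07 and -0.36 on day 6 and -0.10 and -0.42 on day 8.

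Other lists of mitochondrial genes were read beside the members, and differed in how many of their genes passed. The shares of all genes that fell, 9.91% on day 4, 13.6% on day 6 and 14.1% on day 8, apply to each count. The genes that build and read mitochondrial DNA had a median difference of -0.38 on day 4 over 18 genes, of which 3 fell, a share of 16.7%. By array, the median deviation from each gene's mean was 0.41 and 0.32 on day 0 and 0.29 and -0.25 on day 4. Replicate 1 of day 4 thus lay near day 0. On day 8 the median difference was -0.64 and 6 of 18 fell, a share of 33.3%, with none rising. POLG2, the accessory subunit of the mitochondrial DNA polymerase, had 584.8 and 595.8 on day 0, 323.2 and 256 on day 4, 213.1 and 250.3 on day 6 and 249.6 and 244.2 on day 8. It fell at all 3 days, by 0.96, 1.24 and 1.16 (SE 0.17 each, adjusted p = 0.0086, 0.00264 and 0.00352). TFAM, which packs mitochondrial DNA and acts as a factor in its transcription, fell on day 8 by 0.97 (SE 0.23, adjusted p = 0.0239). The 75 proteins of the mitochondrial ribosome, which translates the mitochondrially encoded subunits, had medians of -0.25, -0.56 and -0.67 on day 4, day 6 and day 8, and 6, 23 and 27 of them fell with none rising, shares of 8%, 30.7% and 36%. MRPS12, a protein of the small subunit, had 573 and 590.3 on day 0, 186.4 and 293.7 on day 4, 107.5 and 143 on day 6 and 188.1 and 170.1 on day 8. Against day 0 its day 8 difference was -1.54 (SE 0.22, adjusted p = 0.00342).

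Assembly factors with other names had a median of -0.48 on day 8, and 6 of 44 fell, a share of 13.6% that is near the 14.1% of all genes. COA7 and SURF1, both needed to build complex IV, fell by 1.33 (SE 0.19, adjusted p = 0.00362) and by 0.89 (SE 0.16, adjusted p = 0.00877), and UQCC3, which acts on complex III, fell by 1.36 (SE 0.22, adjusted p = 0.00524). Of 23 genes of protein import and cristae, 7 fell on day 8, a share of 30.4%, with a median of -0.64, among them the chaperone HSPA9 and the import receptor TOMM20, with differences of -1.07 (SE 0.18) and -0.99 (SE 0.22). Among 12 carriers and pores, SLC25A4, which exchanges ADP for ATP, fell by 1.22 on day 8 (SE 0.24, adjusted p = 0.0115), and VDAC1 fell by 0.73 (SE 0.21, adjusted p = 0.0454). In the list of electron carriers with CYC1, 0 of 7 genes passed on day 8, by limma, with a median of -0.48. ETFB of this list fell on day 6 by 0.83 (SE 0.19, adjusted p = 0.0239). The list of the citric acid cycle, which includes pyruvate carboxylase although that is not a step of the cycle itself, had calls in both directions. Of its 13 genes, 3 fell and none rose on day 6, a share of 23.1%. These were IDH3B, a subunit of isocitrate dehydrogenase, with a difference of -0.66 (SE 0.18, adjusted p = 0.0385), MDH2, malate dehydrogenase, with -0.67 (SE 0.17, adjusted p = 0.0333), and PC, pyruvate carboxylase, with -0.43 (SE 0.11, adjusted p = 0.029). On day 4, IDH2 rose and PC fell. On day 8 only IDH2 passed, which had 3161 and 1976 on day 8 against 1143 and 1133 on day 0 (log2 difference 1.11, SE 0.30, adjusted p = 0.0355).

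Lists outside the respiratory chain gave the scale of these differences. At day 8, the 57 proteins of the cytosolic ribosome had a median of -0.35 and 10 of them fell, a share of 17.5%. Glycolysis had a median of -0.21 over 20 genes, and 2 of these rose, where 10.4% of all genes rose. They were SLC2A3, a glucose transporter, which rose on day 8 by 0.74 (SE 0.12, adjusted p = 0.00524), and HK1, the hexokinase, which rose by 0.67 (SE 0.18, adjusted p = 0.0356). PFKM, a phosphofructokinase, fell on day 6 by 0.88 (SE 0.17, adjusted p = 0.0125) and did not pass on day 8 (-0.57, adjusted p = 0.0541). No difference between the lists was tested.

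**Figure D5:**
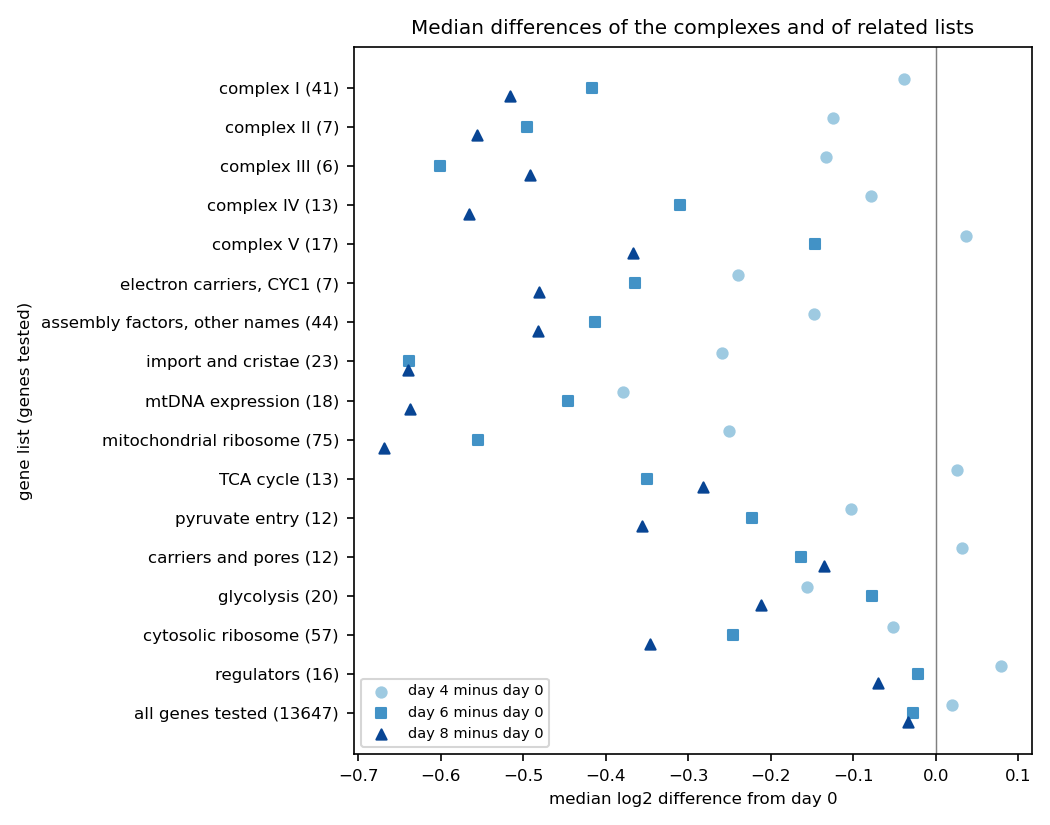
Median log2 difference from day 0 (horizontal axis) for complexes I to V, for 11 related lists and for all genes tested (rows, with the number of genes tested), on day 4, day 6 and day 8. At day 8 the mitochondrial ribosome has the lowest median, -0.67, and all genes together lie at -0.03.

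Of 16 regulators of the respiratory chain tested, 3 fell and none rose on day 8, a share of 18.8% where 14.1% of all genes fell, and the median was -0.07. PPRC1, a coactivator of the PGC-1 family, had 902 and 890.9 on day 0, 360.9 and 293.7 on day 4, 339.9 and 373.4 on day 6 and 431.9 and 396.1 on day 8. All its sorted arrays were below day 0, and it fell by 1.38 on day 4 (SE 0.17, adjusted p = 0.00202) and by 1.06 on day 8 (SE 0.17, adjusted p = 0.00523). PPARGC1B, of the same family, fell by 1.34 on day 4 (SE 0.22, adjusted p = 0.00664), by 1.59 on day 6 (SE 0.22, adjusted p = 0.00286) and by 0.92 on day 8 (SE 0.22, adjusted p = 0.0242). ESRRG, an estrogen related receptor that works with such coactivators, was the third to fall on day 8. NRF1 itself differed by -0.16 on day 8 (SE 0.22, adjusted p = 0.647), and YY1 by -0.25 (SE 0.16, adjusted p = 0.293). GABPA, the ETS subunit of GABP, had 447.8 and 357.7 on day 8 against 451.9 and 466.9 on day 0 (log2 difference -0.18, SE 0.36). GABPB1, its partner, rose on day 6 by 1.53 (SE 0.40, adjusted p = 0.0347), with 1837 and 1132 on day 6 against 480 and 479.4 on day 0.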

How the data were processed

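H9 cells were measured on 8 Affymetrix arrays. Per the labels, total RNA was extracted with Trizol and hybridised as biotinylated cRNA. The authors deposited 1 linear intensity per probe set, made with MAS5 per the submitters' processing notes, with version and scaling not given in the sources used here. Groups and replicates were read from titles. The source name of 3 samples gives day 4, and their title, description and stage a later day, which was used. Of 54675 probe sets, 41091 had 1 gene symbol, 1801 several, 11721 none and 62 were controls. The probe set with the highest mean of log2(intensity + 32) stood for each gene, and an _x_at set only where no other existed, as for 2 members. No scaling was added.

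Differences were tested with limma (3.58.1, run in R 4.3.3). A single model held all 8 arrays and the 4 groups, moderated by eBayes with a mean-variance trend, and gave two-sided p-values, Benjamini-Hochberg adjusted over 13647 genes and called at 0.05. The fit had 4 residual degrees of freedom. It was checked on simulated data. Alternatives changed the offset, filter, normalization, choice of probe set, samples and variance model, added the replicate number as a block, or left arrays out. Genes named were those past the threshold (over 12 in a comparison, its 6 largest changes each way), the 3 largest changes each way, isoform families and, per list, up to 4 called genes with the smallest p. Other names were chosen after their values were seen. The members and lists were chosen with earlier results of these data known. Figures used Python 3.11.15 and matplotlib 3.10.9.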

Additional observations from a re-analysis of the deposited data

How the results depend on the processing

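Among the differences of members picked by the naming rule, none that passed the test changed sign under any alternative run. Other calls named above, such as those of NDUFAF5, NDUFV2, COX5B and the related lists, were not followed through the alternatives. For day 4 against day 0, where 3 members passed, 6 did after quantile normalization and 6 probe sets did with every probe set tested on its own. For day 6, where 23 passed, 13 did with only the arrays compared and 7 with a log2 difference of at least 1. For day 8, where 20 passed, the counts were 32 probe sets with every probe set on its own, 42 genes with only the arrays compared and 9 with a minimum of 1. For the mean of the sorted days the minimum left 2 of 22. Leaving out single arrays gave 1 to 5 members on day 4, 2 to 26 on day 6, 2 to 25 on day 8 and 2 to 26 for the sorted mean. Without replicate 2 of day 8, 11 passed in the sorted mean. Without replicate 1 of day 4 and of day 6, 10, 47, 43 and 45 passed, and medians were -0.19, -0.40, -0.22 and -0.18 for complexes I to IV and -0.18 for I to V on day 4, -0.91, -0.64 and -0.36 for II, IV and V on day 6, and -0.70 for II in the sorted mean. The cause was not tested.

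Medians with 1 array left out ranged, on day 4 against day 0, from -0.19 to 0.12 for complex I, -0.40 to 0.070 for II, -0.22 to -0.060 for III, -0.18 to -0.050 for IV and -0.18 to 0.070 for I to V. On day 6 they ranged from -0.91 to -0.29 for II, -0.64 to -0.17 for IV and -0.36 to 0.051 for V. On day 8 they ranged from -0.69 to -0.34 for I, -0.88 to -0.14 for II, -0.68 to -0.33 for IV, -0.53 to -0.21 for V and -0.65 to -0.33 for I to V. For day 6 against day 4 the ranges were -0.59 to -0.025 for I, -0.62 to 0.069 for II, -0.46 to -0.074 for IV and -0.45 to -0.0059 for V. They were -0.41 to 0.12 for III between day 8 and day 6, and -0.69 to -0.34 for III and -0.55 to -0.15 for V between day 8 and day 4. Quantile normalization gave -0.33, -0.42 and -0.19 for III, IV and V on day 8, and -0.30 for III between day 8 and day 4. The mean of all probe sets gave -0.28 for II on day 6, -0.34 for I and -0.16 for V on day 8, and -0.28 for III between day 8 and day 4. Every probe set on its own gave -0.016 for III on day 4. With a filter at the 75th percentile the median of all genes on day 8 was -0.12.

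With the replicate number as a replicate block, 4, 30, 29 and 23 members passed on day 4, day 6, day 8 and in the sorted mean. Within the sorted days, 0 passed. The block cannot change any difference or median, because each group holds both replicate numbers. Replicate differences correlated at 0.60 between day 4 and day 6, 0.41 between day 6 and day 8 and 0.19 between day 4 and day 8, and from -0.025 to 0.024 between day 0 and the sorted days. The labels do not say whether equal numbers share a culture, and pairing among the sorted days was not settled.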
